A study of Homo sapiens with 12 samples.

Results

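Mucus is built by secretory cells that make very large glycoproteins, fold them in the endoplasmic reticulum, decorate them with O-linked sugars and store them in granules. MUC5B and MUC5AC are the gel-forming mucins of airway mucus, and MUC1 is a mucin held in the cell membrane. The transcription factor SPDEF drives the maturation of goblet cells, AGR2 is an endoplasmic reticulum protein that mouse intestine needs to make mucin, and FCGBP is a large secreted protein of mucus. FOXA3 and CREB3L1 are transcription factors, FOXA3 being tied in mouse airways to goblet cell change and CREB3L1 being a membrane-bound factor of secretory cells. These 8 genes were taken by name from a table of 58735 genes. They were chosen by their levels and differences across the 4 groups of these same libraries, so those levels and changes are given as a description. Calls from the fit over all genes are counted for them only beside the share of all genes called, and nothing is read from those calls.

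The libraries were poly-A-selected RNA-seq of A549, an established line from a human lung adenocarcinoma that is often used as a model of alveolar epithelium. The cells carried a stably transfected hairpin against FXR (shFXR) or a control hairpin (shControl), and each line was taken 3 days after ionizing radiation (IR) or after sham irradiation. This gave the groups shFXR IR, shControl IR, shFXR sham and shControl sham, with 3 replicates each and 12 libraries in all. FXR is taken here to be NR1H4, the bile acid receptor, a nuclear receptor that binds DNA together with RXR. The sources used here do not give the radiation dose, the number of hairpins or clones, or when sham cells were taken. The knockdown and any other difference between the 2 lines cannot be told apart. The study described the replicates as biological.

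Totals lay between 17140918 and 19036159 counts per library. NR1H4 stood at 2.81 to 5.08 counts scaled to a common library size (CPM) in the 6 shFXR libraries and at 22.0 to 29.1 CPM in the 6 shControl libraries. Mitochondrially encoded genes took 10.0% to 13.1% of the counts in shFXR libraries and 12.9% to 16.8% in shControl libraries. Replicates of the shControl groups differed more from each other than those of the shFXR groups: pairwise chi-square per degree of freedom was 2.54 to 7.22 within shFXR groups and 6.52 to 25.4 within shControl groups. Replicate 2 of shControl sham stood apart, at 25.4 and 22.1 against the other replicates, which gave 7.32 between them. Without it 6 members were still called between the sham lines, with MUC5B at log2 -5.06 and MUC1 at -0.60, and 6099 genes in all, 3171 higher and 2928 lower in shFXR cells. The part of these differences in the results was not tested. Of the markers of alveolar type II cells, which A549 is often said to resemble, SFTPA1, SFTPA2 and SLC34A2 had at most 3 counts in any library, while ABCA3 had between 1346 and 1915. Of the goblet cell genes outside the 8, TFF2, TFF3, CLCA1 and ZG16 had no count in any library. Club cell markers SCGB1A1 and SCGB3A2 had at most 1 count. Summed alveolar type II markers gave 90.2 to 102 CPM in shFXR sham and 86.6 to 92.6 CPM in shControl sham libraries, and after radiation 110 to 114 CPM in shFXR and 85.6 to 98.1 CPM in shControl libraries. Ciliated cell markers gave 13.1 to 17.9 CPM in shFXR sham and 15.5 to 16.97 CPM in shControl sham libraries, and after radiation 19.8 to 22.4 CPM in shFXR and 14.5 to 14.6 CPM in shControl libraries. Both sums thus overlapped between the sham lines and were higher in all irradiated shFXR than in all irradiated shControl libraries. Most of the alveolar type II sum was ABCA3. Of the 4 tested type II markers, 1 was called higher and 2 lower in irradiated shFXR than in irradiated shControl cells (median log2 -0.59). Airway basal markers, mostly TP63, summed to 10.4 to 11.8 CPM in shFXR sham and 12.4 to 16.5 CPM in shControl sham libraries. After radiation they summed to 9.46 to 10.3 CPM in shFXR and 11.1 to 15.6 CPM in shControl libraries. The basal sums thus did not overlap between the lines under either treatment. Endothelial markers summed to 0.755 to 2.29 CPM in shFXR and 0.997 to 3.64 CPM in shControl libraries. The 5 leukocyte markers summed to 8.04 to 15.9 CPM in shFXR and 22.0 to 53.8 CPM in shControl libraries, nearly all of it CD14, while PTPRC and CD68 had at most 3 counts and CD3E and MS4A1 none. The 7 fibroblast markers summed to 27.6 to 42.2 CPM in shFXR and 16.8 to 24.9 CPM in shControl libraries, without overlap, and most of these counts were DCN. Of the 5 tested, 2 were called higher and 2 lower in shFXR sham cells (median log2 0.09). After radiation 4 were called higher and 0 lower (median 1.35). DCN had 177 to 544 counts per library, COL1A1 39 to 111 and LUM 28 to 64, while COL1A2 had no more than 2. The part of these markers in the mucin results was not tested.

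Upstream sequences are shown for SPDEF, FCGBP and AGR2, 3 of the genes that were lower in every shFXR library. RefSeq promoter entries (GRCh38.p14) matched 6 of the 8 genes, all but MUC5B and MUC5AC. Each line gives the 250 bases before the RefSeq gene start, 5′ to 3′ on the gene's own strand, which is the minus strand for each. They span chr6:34556330-34556579 for SPDEF, chr19:39934635-39934884 for FCGBP and chr7:16805000-16805249 for AGR2, the last lying inside the longer AGR2 gene of the deposited annotation. Capitals mark a forkhead motif.
SPDEF: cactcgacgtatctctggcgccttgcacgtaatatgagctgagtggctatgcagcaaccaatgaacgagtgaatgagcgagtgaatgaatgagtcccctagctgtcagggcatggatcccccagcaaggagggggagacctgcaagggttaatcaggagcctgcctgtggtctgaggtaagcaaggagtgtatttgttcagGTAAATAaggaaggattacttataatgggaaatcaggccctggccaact
FCGBP: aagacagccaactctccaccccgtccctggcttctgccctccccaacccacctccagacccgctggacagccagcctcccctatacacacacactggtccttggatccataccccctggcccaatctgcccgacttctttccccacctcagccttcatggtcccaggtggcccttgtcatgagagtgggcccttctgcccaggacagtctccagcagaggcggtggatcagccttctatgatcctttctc
AGR2: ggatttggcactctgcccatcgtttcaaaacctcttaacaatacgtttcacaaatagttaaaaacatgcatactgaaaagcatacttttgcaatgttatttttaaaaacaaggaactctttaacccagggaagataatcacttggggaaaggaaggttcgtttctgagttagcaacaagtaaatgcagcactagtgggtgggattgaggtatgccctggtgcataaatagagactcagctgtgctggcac

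The 8 motifs were searched on both strands of 300-base windows, from 250 bases before to 50 after each start, in 35116 promoter entries. SPDEF held the forkhead form TATTTAC, read there on the opposite strand, beginning 49 bases before its start. That form, added to the search after the SPDEF sequence was seen, was in 2.67% of all entries. The forkhead forms TGTTTAC and TGTTTGC, in 3.42% and 3.89% of entries, were in none of the 6 genes' windows. The AP-1 motif TGANTCA was in the FOXA3 window and in 7.71% of entries. SPDEF is itself a factor of the ETS family, and no member window held the ETS forms CCGGAAG (10.3%) and CCGGATG (2.64%), or the form TGACGTG (1.97%) bound by factors of the CREB3 family. The inverted repeat of AGGTCA with 1 base between its copies, an exact form of the FXR element, was in 0 of the 35116 entries. A match or its absence says only whether these letters are in the window.

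Of the 3 mucins in the set, MUC5B differed most between the lines. Its level was 6.68, 3.24 and 4.21 CPM in the shFXR sham libraries, against 209, 102 and 109 CPM in the shControl sham libraries. After radiation it was 4.21, 6.19 and 3.27 CPM in shFXR cells, against 151, 115 and 70.8 CPM in shControl cells. The lines did not overlap under either treatment, whereas irradiated and sham libraries overlapped within each line. The fitted log2 difference was -4.90 ± 0.32 (SE) between the sham lines and -4.63 ± 0.32 after radiation, leaving 3.35% and 4.05% of the shControl level. In bulk RNA, fewer cells that make a transcript and less of it per cell cannot be told apart.

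MUC5AC, the other gel-forming mucin, followed the same order at a lower level. It had 4.31, 2.55 and 2.81 CPM in the shFXR sham libraries and 47.6, 21.9 and 23.9 CPM in the shControl sham libraries. After radiation it had 2.05, 2.81 and 2.02 CPM in shFXR cells and 35.7, 25.8 and 16.2 CPM in shControl cells. The lines did not overlap under either treatment, and the log2 differences of -3.28 ± 0.31 (sham) and -3.50 ± 0.33 (IR) left 10.3% and 8.85% of the shControl level.

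Per kilobase of gene length, which allows levels of different genes to be set side by side, MUC5B exceeded MUC5AC in every library, but by less in the shFXR line. The ratio of MUC5B to MUC5AC per length was 1.35 ± 0.14 in shFXR sham and 4.26 ± 0.13 in shControl sham cells (SD, n = 3 each). After radiation it was 1.84 ± 0.28 in shFXR cells and 4.08 ± 0.10 in shControl cells. The highest ratio in a shFXR library was 2.07 and the lowest in a shControl library was 3.97. The annotated transcripts of the 2 genes shared 66 of the 14594 stretches of 50 bases in MUC5B, or 0.452%, so few reads of that length could belong to either. The sources used here do not say how multiply mapping reads were counted.

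MUC1 (ENSG00000185499, chr1:155185824-155192916, minus strand) differed between the sham lines and much less after radiation. It had 19.0, 18.4 and 17.1 CPM in the shFXR sham libraries, against 31.3, 39.2 and 24.4 CPM in the shControl sham libraries. After radiation the values were 20.6, 24.4 and 25.1 CPM in shFXR cells and 31.7, 21.9 and 21.8 CPM in shControl cells. The sham lines did not overlap, whereas the irradiated lines did: the log2 difference was -0.80 ± 0.15 between sham lines and -0.11 ± 0.15 between irradiated lines. MUC1 thus kept 57.6% of the shControl level in sham cells and 92.9% after radiation while MUC5AC kept 10.3% and 8.85%.

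FCGBP (ENSG00000275395, chr19:39863323-39934626, minus strand), which binds the Fc part of IgG, behaved like the gel-forming mucins. Its level was 3.26, 3.24 and 2.54 CPM in shFXR sham libraries and 76.6, 45.5 and 36.1 CPM in shControl sham libraries. After radiation it was 3.35, 4.13 and 4.58 CPM in shFXR cells and 59.3, 37.7 and 27.1 CPM in shControl cells. No shFXR library reached a shControl library, and the log2 differences were -4.13 ± 0.30 (sham) and -3.36 ± 0.29 (IR). AGR2 (ENSG00000106541, chr7:16791811-16833433, minus strand) remained abundant in both lines. It had 97.5, 95.9 and 97.0 CPM in shFXR sham libraries, against 308, 268 and 252 CPM in shControl sham libraries. After radiation it had 97.3, 102 and 95.2 CPM in shFXR cells and 333, 320 and 312 CPM in shControl cells. AGR2 kept 35.1% of the shControl level in sham cells and 30.5% after radiation (log2 -1.51 ± 0.08 and -1.71 ± 0.08), and again the lines did not overlap.

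**Figure D1:**
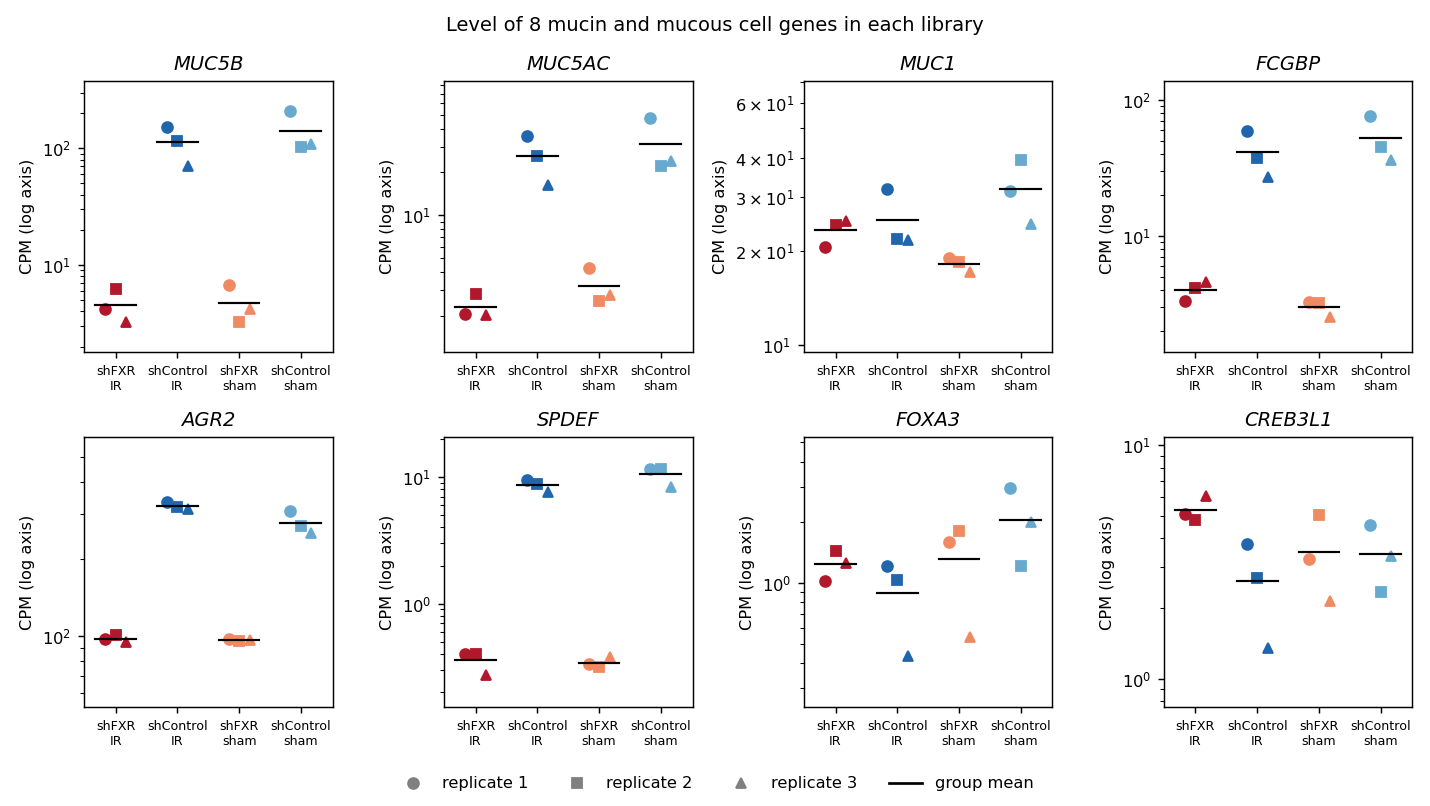
Level of each of the 8 genes in CPM (log axis, range set per panel) in 12 libraries; symbols mark the replicate number and the black line the mean of the 3 libraries. MUC5B, MUC5AC, FCGBP, AGR2 and SPDEF sit lower in all 6 shFXR libraries than in all 6 shControl libraries, while FOXA3 and CREB3L1 stay below 7 CPM in every group.

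SPDEF (ENSG00000124664, chr6:34537802-34556333, minus strand), a factor of the ETS family, was close to the limit of detection in the shFXR line. The shFXR sham libraries held 6, 6 and 7 reads of it, against 219, 192 and 160 reads in the shControl sham libraries. After radiation the shFXR libraries held 7, 7 and 5 reads and the shControl libraries 173, 155 and 140 reads. In CPM this was 0.343 ± 0.031 in shFXR sham and 10.5 ± 1.8 in shControl sham cells (SD, n = 3 each), and 0.357 ± 0.073 in shFXR IR and 8.65 ± 0.96 in shControl IR cells. The groups did not overlap, with log2 differences of -4.91 ± 0.24 (sham) and -4.57 ± 0.25 (IR). SPDEF passed the filter on low counts only through the shControl libraries.

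The other two transcription factors were not lost with it. FOXA3 had 1.60, 1.81 and 0.54 CPM in shFXR sham libraries and 2.95, 1.21 and 1.99 CPM in shControl sham libraries, and after radiation 1.02, 1.43 and 1.25 CPM in shFXR and 1.21, 1.03 and 0.43 CPM in shControl libraries. FOXA3 (ENSG00000170608, chr19:45863989-45873797, plus strand) rested on 8 to 56 reads per library, and the lines overlapped under both treatments. CREB3L1 (ENSG00000157613, chr11:46277661-46321422, plus strand) had 3.26, 5.04 and 2.16 CPM in shFXR sham and 4.54, 2.36 and 3.36 CPM in shControl sham libraries. After radiation CREB3L1 had 5.06, 4.76 and 6.05 CPM in shFXR and 3.78, 2.69 and 1.36 CPM in shControl libraries. The irradiated shFXR libraries all lay above the irradiated shControl libraries, a log2 difference of 1.02 ± 0.31, whereas the sham lines overlapped at 0.02 ± 0.31. That difference stood at 0.71 without shControl IR replicate 3 and 0.91 without shFXR IR replicate 3, and in both fits it no longer passed the threshold that counts a gene as called.

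In the fit over all 16053 genes with enough counts, a gene was called at an adjusted p under 0.05. All 8 members passed the count filter. Between the sham lines 6 members were called, all lower in shFXR cells (MUC5B, MUC5AC, SPDEF, FCGBP, AGR2 and MUC1), where 37.4% of all tested genes were called, 18.0% higher and 19.4% lower. That split was 2885 higher to 3118 lower with TMM scaling and 3820 higher to 2465 lower when only total counts were scaled. After radiation 6 members were called, 5 lower and 1 higher (CREB3L1), where 40.8% of tested genes were called, 21.3% lower and 19.5% higher. The groups did not overlap for 6 members in each comparison, beside 46.9% of tested genes in sham cells and 52.9% after radiation. Because these contrasts chose the members, nothing is read from those counts. The median log2 difference over the 8 was -2.39 in sham cells and -2.54 after radiation, beside -0.011 and -0.001 over all tested genes.

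**Figure D2:**
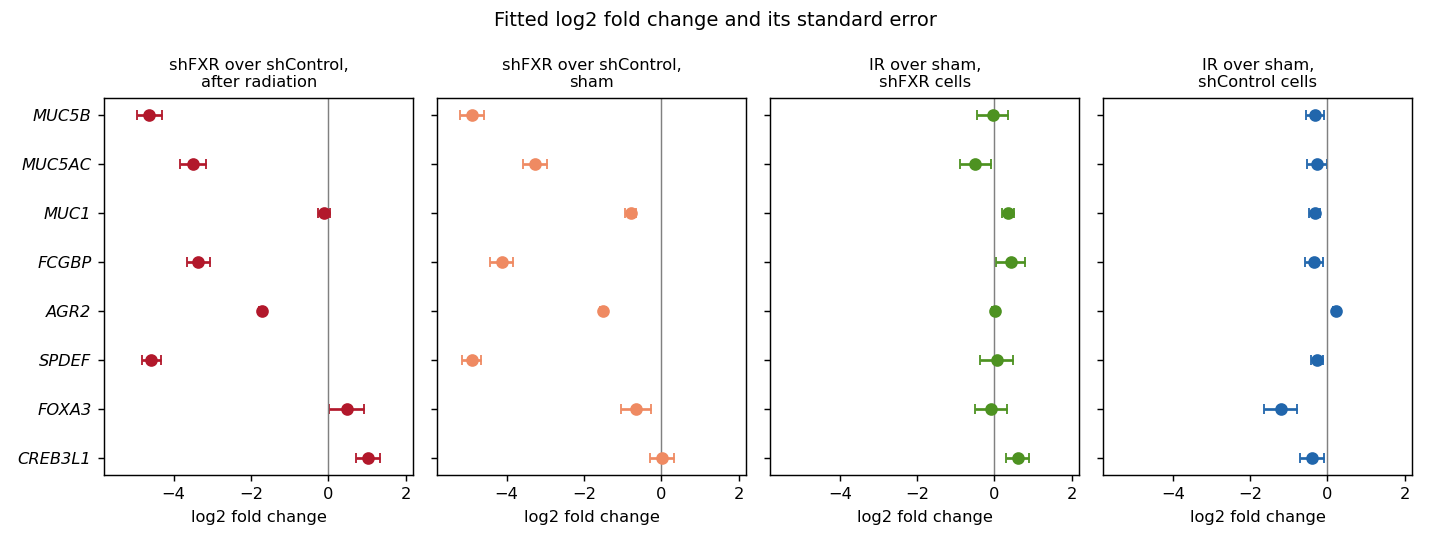
Log2 fold change of each gene (points) with its standard error (bars) for shFXR over shControl after radiation and in sham cells, and for IR over sham in each line. The left pair of panels reaches -4.91 for SPDEF and -4.90 for MUC5B in sham cells, while the right pair lies between -1.21 and 0.60.

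Set per kilobase of gene length, the order of levels within a group differed between the lines. AGR2 was highest in every group, at 34.0 ± 0.29 CPM per kb in shFXR sham and 97.0 ± 10 in shControl sham cells (SD, n = 3 each). In shControl sham cells MUC5B (7.53 ± 3.2), MUC1 (6.71 ± 1.6), SPDEF (5.49 ± 0.96) and FCGBP (4.07 ± 1.6 CPM per kb) followed, each overlapping its neighbour in that order, and then MUC5AC (1.79 ± 0.82), FOXA3 (0.94 ± 0.40) and CREB3L1 (0.85 ± 0.27). In shFXR sham cells MUC1 came next after AGR2 at 3.85 ± 0.21 CPM per kb, clear of CREB3L1 (0.86 ± 0.36) and FOXA3 (0.60 ± 0.31). MUC5B (0.25 ± 0.10), FCGBP (0.23 ± 0.03), MUC5AC (0.18 ± 0.05) and SPDEF (0.18 ± 0.02 CPM per kb) were then the lowest 4 and overlapped one another. Of the 3 mucins in the set, the membrane mucin MUC1 therefore had the highest level per length in shFXR sham cells.

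Between irradiated and sham cells the log2 differences of the 8 genes lay between -1.21 and 0.60. In shFXR cells edgeR called 0 of the 8 members, DESeq2 0 and a weighted voom fit 1, with 1 at an unadjusted p under 0.05 in edgeR. Over all genes edgeR called 3379 there, or 21.0% of those tested, 10.9% higher and 10.2% lower. DESeq2 called 3374 genes and voom 6298. In shControl cells edgeR called 0 members, DESeq2 1 and voom 2, with 3 at an unadjusted p under 0.05 in edgeR. Over all genes edgeR called 1611 there, or 10.0% of those tested, 5.07% higher and 4.96% lower. DESeq2 called 1834 genes and voom 2659. MUC5B differed by log2 -0.05 ± 0.41 between irradiated and sham shFXR cells and by -0.32 ± 0.24 in shControl cells, with overlapping libraries in both. SPDEF differed by 0.06 ± 0.42 in shFXR and -0.28 ± 0.16 in shControl cells. The groups did not overlap for 2 members in each line, MUC1 and FCGBP being higher after radiation in shFXR cells and AGR2 higher and FOXA3 lower in shControl cells, beside 43.7% and 24.7% of all tested genes.

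For MUC1 the log2 radiation change was 0.36 ± 0.15 in shFXR cells and -0.33 ± 0.15 in shControl cells. The difference of these changes was 0.69 ± 0.21. The fit called it for MUC1 alone of the 8, where 15.0% of tested genes were called, 7.31% higher and 7.67% lower; since the changes over these groups chose the genes, nothing is read from that call. The value lay between 0.50 and 0.88 when any single library was left out, and passed the threshold only in the fits without shControl sham replicate 3, shControl IR replicate 1 or shFXR IR replicate 1. FOXA3 gave 1.12 ± 0.59, CREB3L1 1.00 ± 0.44 and FCGBP 0.77 ± 0.44, none of them called. AGR2 differed by 0.02 ± 0.08 with radiation in shFXR cells and by 0.22 ± 0.07 in shControl cells. Without shControl sham replicate 1 the shControl value of AGR2 was 0.30 and past the threshold. FOXA3, at few reads per library, differed by -1.21 ± 0.42 with radiation in shControl cells and was not called. Without shControl sham replicate 2 its value was -1.47 and past the threshold.

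The 2 gel-forming mucins varied together between replicates. Deviations of log2(CPM + 0.5) from each group's mean correlated between MUC5B and MUC5AC at r = 0.97 over 12 libraries (r = 0.96 in the 6 shFXR and 1.00 in the 6 shControl libraries). In shControl libraries MUC5B also moved with FCGBP (r = 0.95), FOXA3 (0.93) and CREB3L1 (0.93), and less with AGR2 (0.83), SPDEF (0.62) and MUC1 (0.34). In shFXR libraries the same pairs gave -0.01 for FCGBP, 0.14 for FOXA3 and -0.45 for CREB3L1, and 0.81 for AGR2, 0.50 for SPDEF and 0.14 for MUC1. FOXA3 and CREB3L1 deviated together in both lines, at r = 0.90 over 12 libraries. These correlations describe few libraries that share a depth and a scaling factor per library. Replicate 1 of shControl sham and replicate 1 of shControl IR were high for both gel-forming mucins, and replicate 3 of shControl IR was low.

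**Figure D3:**
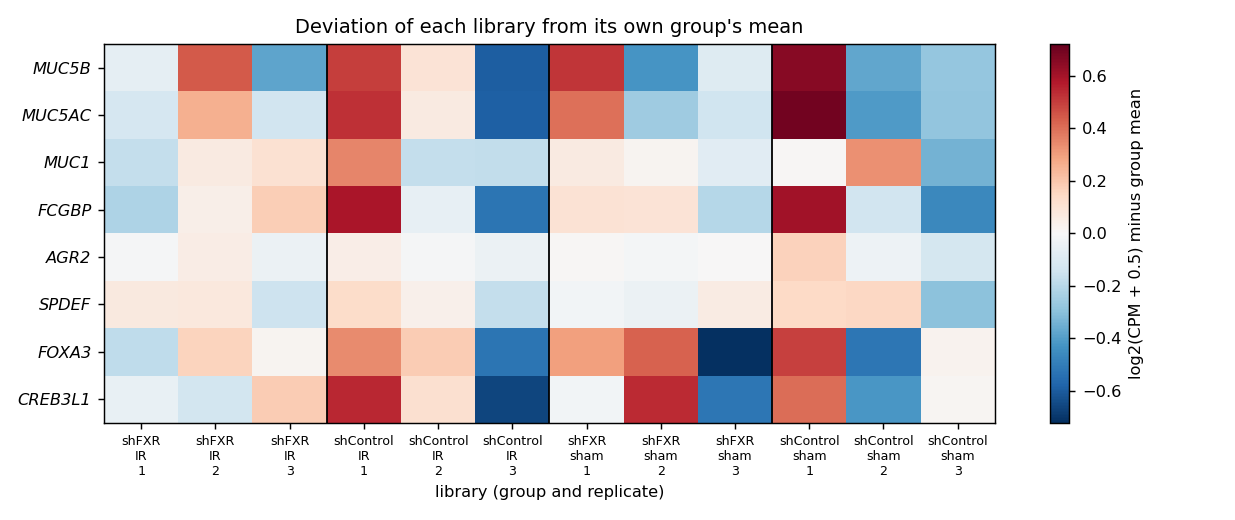
Deviation of each library from the mean of its own group in log2(CPM + 0.5) units, for 8 genes (rows) and 12 libraries (columns); red is above and blue below the group mean. MUC5B, MUC5AC, FCGBP, FOXA3 and CREB3L1 share a high replicate 1 and a low replicate 3 in shControl IR, whereas AGR2 varies little in every group.

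Among 10484 other protein-coding genes with a mean of at least 5 CPM, those with the closest pattern of log2 level over the 12 libraries by Pearson correlation were LXN, GUCY1A2 and FGA for MUC5B, and ST3GAL5, NCOA7 and TCN1 for MUC5AC. For FCGBP they were RARRES1, EVA1C and RDH10, for AGR2 SPTSSA, MMP7 and SOAT1, and for MUC1 IRF5, PARP6 and CLSTN3. The libraries fall into 2 clusters by line, so a coefficient over all 12 is not given. Over deviations from the group means, the closest were KMT2B (r = 0.94), ARSD (0.94) and MED12 (0.93) for MUC5B, and CDH17 (0.96), ZBTB7A (0.96) and BCL6 (0.95) for MUC5AC. FCGBP was closest to SLC2A3 (0.98), RDH10 (0.97) and TBXAS1 (0.97), AGR2 to KIAA1522, GOLM1 and C2orf49 (0.93, 0.93 and 0.92), and MUC1 to TTC32, AMPD2 and BRICD5 (0.95, 0.95 and 0.94). These are the highest of 10484 coefficients, each over 12 libraries, and picking the highest of so many raises them. Whether these genes truly vary together was not tested.

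MUC5B and MUC5AC lie 21.9 kb apart in a mucin cluster on chromosome 11 (GENCODE 29 coordinates on hg38), MUC5AC (ENSG00000215182) at chr11:1157953-1201138 and MUC5B (ENSG00000117983) at chr11:1223066-1262172, both on the plus strand. The other 2 mucins of the cluster were hardly detected, MUC2 with at most 12 and MUC6 with at most 4 reads in any library. MUC5B-AS1, antisense to MUC5B, had no reads. Beyond the cluster, TOLLIP, an adaptor of Toll-like receptor signalling 12.2 kb past MUC5B, fell in shFXR sham cells (log2 -0.96 ± 0.09, adjusted p = 7.2e-08) and after radiation (-0.82 ± 0.09, adjusted p = 4.0e-07). AP2A2, a clathrin adaptor subunit on the other side, fell in sham cells (-0.36 ± 0.08, adjusted p = 8.6e-04), and BRSK2, a kinase, differed by -0.05 ± 0.10 (adjusted p = 0.75). Of 24 tested genes within 500 kb other than the 2 mucins, 9 were called in shFXR sham cells and all 9 fell, beside 19.4% of all tested genes called lower; the median was -0.30. With total-count scaling 8 fell. After radiation 6 of the 24 fell and 4 rose (5 and 5 with total-count scaling), beside 21.3% of all tested genes called lower and 19.5% called higher. The 2 nearest tested protein-coding genes on each side of all 8 genes, other than the 8, made 28 genes in all. Of these, 7 fell and 5 rose in shFXR sham cells (5 and 7 with total-count scaling), with a median of -0.09 and a range from -0.96 to 0.69. All tested genes gave 19.4% called lower and 18.0% called higher there. After radiation 6 of the 28 fell and 11 rose (median 0.15), beside the 21.3% and 19.5% given above. The window and the neighbour rule were chosen after these values were seen.

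**Figure D4:**
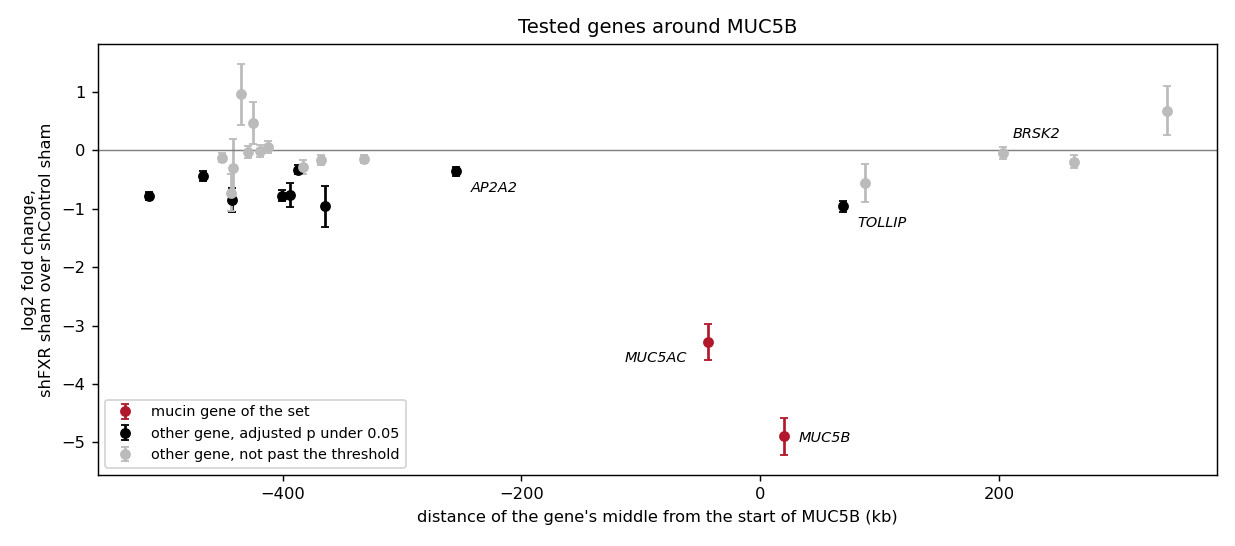
Log2 fold change of shFXR sham over shControl sham cells (points, with standard errors) for the 26 tested genes around MUC5B, by distance of the gene's middle from the MUC5B start. MUC5AC (-3.28) and MUC5B (-4.90) lie far below the other genes, which stay between -0.96 and 0.96.

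Other genes of the mucus pathway were read from 9 lists. Of 18 other mucin and mucin-like genes 4 were tested. The membrane mucin MUC13 had 15.1 ± 0.81 CPM in shFXR sham and 36.2 ± 1.7 CPM in shControl sham cells (log2 -1.26 ± 0.09, adjusted p = 1.9e-09) and also fell after radiation (-1.38 ± 0.09, adjusted p = 3.8e-10). MUC3A rose in shFXR sham cells (1.33 ± 0.36, adjusted p = 0.0072), at 1.11 ± 0.30 CPM in shFXR sham and 0.44 ± 0.06 CPM in shControl sham cells. Of 30 genes of mucus and goblet cells only 6 were tested, and 5 of them fell in shFXR sham cells (median -2.88). SLPI, a protease inhibitor of airway secretions, had 16.9 ± 3.2 CPM in shFXR sham and 148 ± 22 CPM in shControl sham cells (log2 -3.12 ± 0.12, adjusted p = 2.4e-13). TSPAN8, a tetraspanin (-3.17 ± 0.17, adjusted p = 3.1e-11), TCN1, a vitamin B12 carrier (-3.67 ± 0.33, adjusted p = 3.3e-08), CEACAM6, an adhesion protein (-2.64 ± 0.24, adjusted p = 3.6e-08) and ZG16B, a lectin (-1.72 ± 0.38, adjusted p = 0.0014), fell too. After radiation 4 of the 6 fell, with SLPI at 16.7 ± 0.50 CPM in shFXR and 174 ± 16 CPM in shControl cells. The other genes of the list had at most 14 counts in any library, and a gene needed counts in at least 1 group to be tested.

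Genes for making and moving mucins were read from 3 lists, each with called genes in both directions. Tested were 28 of 35 O-glycosylation enzymes, 30 of 30 endoplasmic reticulum and vesicle coat genes and 24 of 26 exocytosis genes. Of 28 tested O-glycosylation enzymes 4 rose and 5 fell in shFXR sham cells (median -0.14), and 9 rose and 9 fell after radiation. GALNT2 and GALNT18, which start O-glycan chains, rose (0.50 ± 0.07, adjusted p = 9.7e-06, and 0.75 ± 0.09, adjusted p = 1.1e-06). B3GNT3, which extends the core, fell to 8.52 ± 0.95 CPM in shFXR sham cells against 28.7 ± 5.9 CPM in shControl sham cells (log2 -1.75 ± 0.16, adjusted p = 3.3e-08). C1GALT1C1, the chaperone of the core enzyme, fell by 0.43 ± 0.07 on the log2 scale (adjusted p = 1.1e-04). Of 30 endoplasmic reticulum folding and vesicle coat genes 3 rose and 13 fell (median -0.18). With total-count scaling 4 rose and 11 fell. The disulfide isomerases TXNDC5 (-1.45 ± 0.18, adjusted p = 2.2e-06), ERP44 (-0.61 ± 0.08, adjusted p = 8.6e-06) and P4HB (-0.36 ± 0.07, adjusted p = 4.0e-04) fell. HYOU1 of that list fell too, whereas SEC31A rose. Of 24 exocytosis genes 1 rose and 4 fell, with RAB27A and VAMP8, both of secretory granule release, at -1.31 ± 0.11 (adjusted p = 2.7e-08) and -1.39 ± 0.15 (adjusted p = 7.0e-07), and RAB3B at 1.13 ± 0.14 (adjusted p = 2.3e-06). After radiation 4 endoplasmic reticulum genes were higher and 9 lower in shFXR than in shControl cells (7 and 8 with total-count scaling). For exocytosis genes 3 were higher and 5 lower.

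The list of secretory cell transcription factors also held the Notch ligand JAG2. Of its 32 tested genes 7 rose and 11 fell in shFXR sham cells (median -0.04), or 8 and 8 with total-count scaling. After radiation 12 rose and 9 fell. ELF3, an epithelial ETS factor, had 58.8 ± 2.3 CPM in shFXR sham and 133 ± 17 CPM in shControl sham cells (log2 -1.17 ± 0.08, adjusted p = 1.1e-09). XBP1, a driver of secretory capacity, fell by 0.96 ± 0.07 on the log2 scale (adjusted p = 3.8e-09). SOX9 (-1.06 ± 0.11, adjusted p = 3.4e-07) and SOX2 (-1.66 ± 0.20, adjusted p = 2.4e-06) fell, and the Notch ligand JAG2 rose (0.33 ± 0.07, adjusted p = 0.0016). After radiation EHF, an ETS factor of airway epithelium, was at 34.8 ± 5.3 CPM in shFXR and 121 ± 15 CPM in shControl cells (log2 -1.80 ± 0.12, adjusted p = 2.8e-10).

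Of 14 tested ion and fluid transport genes 2 rose and 7 fell in shFXR sham cells (median -0.73), and 4 rose and 7 fell after radiation. CA12, a carbonic anhydrase, had 222 ± 22 CPM in shFXR sham and 654 ± 81 CPM in shControl sham cells (log2 -1.56 ± 0.10, adjusted p = 1.8e-10). The chloride cotransporter SLC12A2 (-1.12 ± 0.08, adjusted p = 1.9e-09), the amino acid carrier SLC6A14 (-1.80 ± 0.12, adjusted p = 7.1e-10) and the water channel AQP3 (-3.08 ± 0.25, adjusted p = 7.7e-09) fell, while the sodium channel subunit SCNN1G rose (1.13 ± 0.10, adjusted p = 1.5e-08). EGFR signalling, a known inducer of MUC5AC, was read from 20 tested genes, of which 6 rose and 6 fell (median 0.05). Its ligand AREG rose to 24.8 ± 1.6 CPM in shFXR sham cells against 12.1 ± 0.57 CPM in shControl sham cells (log2 1.03 ± 0.10, adjusted p = 1.5e-07), whereas EGF fell (-2.90 ± 0.43, adjusted p = 2.8e-05). Of 15 tested receptors and targets of IL-13, IL-1 and IL-17, cytokines that act on goblet cells, 4 rose and 6 fell (median -0.02; 6 and 6 with total-count scaling). The targets CST1 (-3.96 ± 0.32, adjusted p = 8.6e-09), SERPINB3 (-2.87 ± 0.33, adjusted p = 1.4e-06) and SERPINB4 (-3.48 ± 0.45, adjusted p = 4.6e-06) fell and the receptor subunit IL1RAP rose (1.33 ± 0.14, adjusted p = 5.1e-07). SERPINB3 and SERPINB4 are near-identical copies, so their split is uncertain. All these counts stand beside 18.0% of all tested genes called higher and 19.4% called lower in sham cells, and beside 19.5% called higher and 21.3% called lower after radiation.

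**Figure D5:**
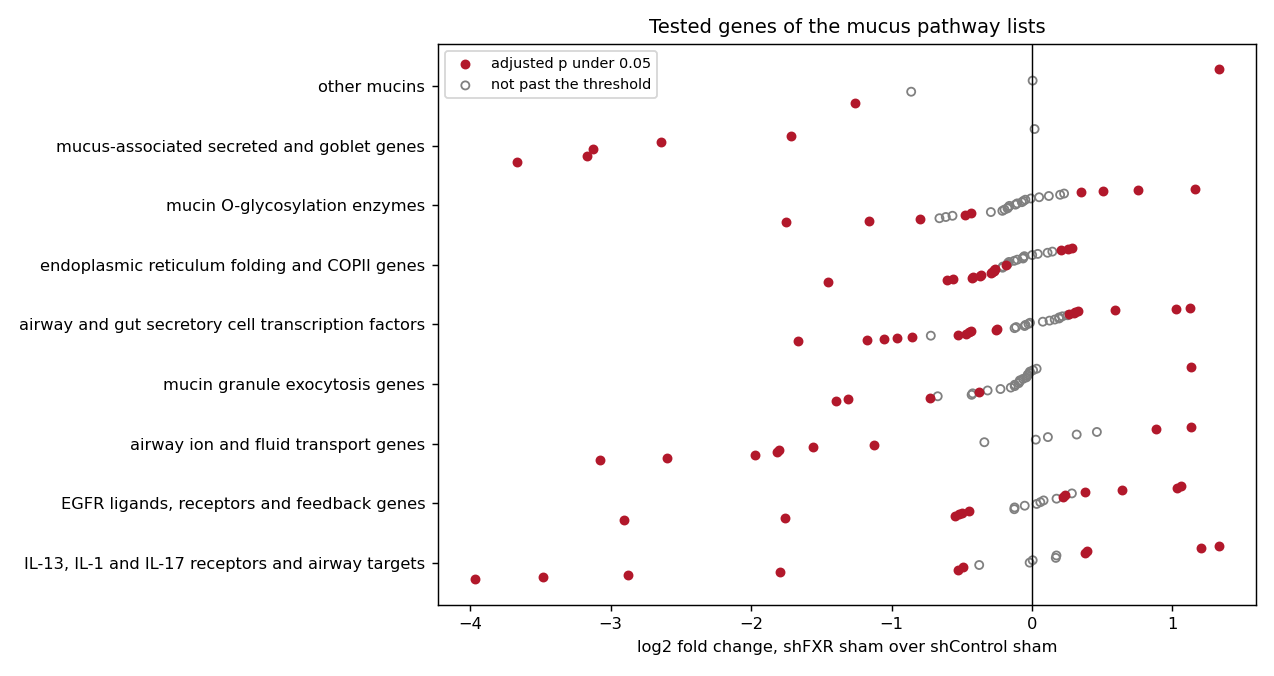
Log2 fold change of shFXR sham over shControl sham cells for each tested gene of 9 mucus-related lists (rows); filled points passed an adjusted p of 0.05 and open points did not. The 6 goblet and mucus genes lie at or below 0.02, whereas enzymes, factors and exocytosis genes spread to both sides of 0.

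Radiation effects on the same lists were fewer. In shFXR cells 10 of the 30 endoplasmic reticulum genes rose after radiation (6 with total-count scaling), among them P4HB (0.34 ± 0.07, adjusted p = 0.0017) and the calcium-binding chaperone CALR (0.37 ± 0.08, adjusted p = 0.0021), where 10.9% of all tested genes rose. In shControl cells 2 of the 30 rose (1 with total-count scaling), SEC23B (0.34 ± 0.08, adjusted p = 0.012) and SEC31A (0.25 ± 0.07, adjusted p = 0.035), where 5.07% of all tested genes rose. GCNT3, which makes branched mucin O-glycans, had 191 ± 16 CPM in irradiated and 126 ± 6.5 CPM in sham shControl cells (log2 0.60 ± 0.08, adjusted p = 5.9e-05). MUC13 rose slightly with radiation in shControl cells (0.31 ± 0.09, adjusted p = 0.027).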

How the data were processed

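Poly-A-selected RNA was sequenced from 12 A549 libraries (4 groups of 3). The authors deposited whole-number read counts per gene without normalization, with gene lengths and positions, and all 58735 positions equal GENCODE 29. The submitters' processing notes name hg38 and DESeq2 1.20.0; the sources used here do not give the aligner, the counter or the strand setting. After TMM scaling, counts were fitted in edgeR 4.0.16 (R 4.3.3) with the quasi-likelihood test and one term per group over all 12 libraries, with 8 residual degrees of freedom. Genes passed edgeR's filter (minimum count 10, minimum total 15), and p-values were Benjamini-Hochberg adjusted over 16053 genes. The fit was checked on simulated counts. CPM uses the TMM-scaled totals. Alternatives used DESeq2 1.42.0 and limma 3.58.1.

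The 8 genes, the 9 pathway lists and the marker lists were chosen with earlier results of these data known. Genes named from a list are up to 4 called with the smallest adjusted p and 1 called the other way; ZG16B was added after its values were seen. One marker gene is not reported here.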

Additional observations from a re-analysis of the deposited data

Results flagged for a closer look

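The change with radiation differed between the lines, by the interaction term of the edgeR fit, for 20 genes of the pathway lists, beside 15.0% of all tested genes. Only the exocytosis list, with 16.7% of its tested genes called, exceeded that share. The other lists lay between 0% and 14.3%, so the lists were not called more often than genes in general. Each value is the log2 change with radiation in shFXR cells less the one in shControl cells, and positive values mean a higher change in shFXR cells. Among O-glycosylation enzymes, GCNT3 (adjusted p = 0.0012) gave -0.64, GALNT1 gave -0.44, GALNT16 gave 1.04 and ST6GALNAC4 gave 0.39. Among transcription factors, EHF (adjusted p = 0.0013) gave -0.95, FOXA2 gave 0.69, SOX4 gave 0.54 and ETV4 gave 0.51. Among endoplasmic reticulum genes, PDIA5 gave 0.59, PDIA4 gave 0.40, CALR gave 0.33 and SEC23B gave -0.37. Among exocytosis genes, STXBP2 gave 0.52, STX3 gave -0.47, RAB27B gave -0.50 and STXBP3 gave -0.66. SCNN1G of the ion transport list gave -0.51, DUSP5 of the EGFR list -0.52, and the cytokine receptors IL4R and IL6R gave 0.45 and -0.57. EHF moved in opposite directions, with log2 changes of -0.39 ± 0.12 in shFXR cells and 0.55 ± 0.11 in shControl cells. The test for a single outlying value needs at least 4 libraries in a group and was not run on these groups of 3.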

How the results depend on the processing

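Of 776 values of the 8 genes under other settings, 773 moved by less than 1 SD between replicates, and no called value changed sign. The other 3 were AGR2 without shControl sham replicate 1 (-1.42 for shFXR over shControl in sham cells, 0.30 for radiation in shControl cells, and -0.29 for the difference of radiation changes). Leaving out 1 of 3 libraries moves a group mean by less than that group's SD. The 1 SD yardstick is therefore lenient for those settings and says little about stability. For MUC5B the radiation change in shControl cells ran from -0.60 to 0.09 when a library was left out. Between the lines the count of called members stayed at 6 in sham cells when any library was left out (5000 to 6252 genes, 77 to 91 list genes), and ranged from 5 to 6 after radiation (5394 to 7283 genes, 83 to 106 list genes). Counts for radiation depended on single libraries: 0 members, 2106 to 4254 genes and 12 to 41 list genes in shFXR cells, beside 0, 3379 and 30 in the full fit, and 0 to 3 members, 562 to 1932 genes and 8 to 33 list genes in shControl cells, beside 0, 1611 and 29. The lowest of these came without shFXR IR replicate 3 (genes) and replicate 1 (list genes) and without shControl IR replicate 2, and the highest without shControl sham replicate 2 and shControl IR replicate 1. The difference of radiation changes gave 0 to 3 members, 1162 to 3254 genes and 10 to 33 list genes, beside 1, 2405 and 20, lowest without shControl IR replicate 3 and highest without shControl IR replicate 1. With no filter on counts, 2, 4 and 3 members were called for radiation in shFXR cells, radiation in shControl cells and the difference. Over all genes that fit called 3375, 1812 and 2587 in the same order. Fitting only the groups compared gave 2 members (MUC1 and CREB3L1), 5063 genes and 50 list genes for radiation in shFXR cells. In shControl cells it gave 551 genes and 7 list genes. Scaling to total counts gave 19 list genes for radiation in shControl cells. DESeq2 called 1 member (AGR2) and 1834 genes there. A limma voom fit with library weights, chosen after seeing the data, called 6298 genes, 1 member and 64 list genes for radiation in shFXR cells, 2659 genes and 2 members in shControl cells, and 4300 genes, 2 members and 45 list genes for the difference. The cause was not tested. Samples with the same replicate number did not all deviate together (correlations from -0.36 to 0.46, highest for replicate 1 of the shControl IR and sham groups), so the numbers were not taken to pair samples; with the replicate number as a block 6, 6, 0, 0 and 1 members and 5889, 6463, 3236, 1553 and 2358 genes were called. SPDEF rests on 5 to 7 reads per shFXR library, so its radiation change in that line has a standard error of 0.42.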
